A study of Sus scrofa with 14 samples.

Results

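The comparison set pgEpiSCs-MPCs, the cells collected at day 8 of directed muscle differentiation, against the undifferentiated porcine pre-gastrulation epiblast stem cells (pgEpiSCs) from which such cultures are started. Its members were chosen by their labels: 2 pgEpiSCs-MPCs libraries of day 8, 3 pgEpiSCs-Low libraries and 3 pgEpiSCs-high libraries of day 0, which makes 8 of the 14 RNA-seq libraries of the series. All 8 came from wild-type (WT) cells. The pgEpiSCs-Low and pgEpiSCs-high libraries are the same untreated line at low and at high passage, and each passage was given equal weight. No source used here says which passage was differentiated, so values are given for both.

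The culture conditions differed in several agents at once. For pgEpiSCs the medium, called 3i/LAF, held 3 inhibitors, CHIR99021 and WH-4-023 (1 μM each) and IWR-1-endo (2.5 μM), beside activin A (25 ng/mL), FGF2 and LIF (10 ng/mL each), and the cells grew on mouse embryonic fibroblast feeders. Differentiation began off the feeders with 3 days in MDM I, which per the labels held CHIR99021 (3 μM) together with SB431542 (2 μM). The study's methods, but not the labels, then name MDM II, with FGF2 (20 ng/mL), LDN193189 (0.5 μM) and CHIR99021 (3 μM), and no length of time for it is given. MDM III, for 2 days, kept LDN193189 and FGF2 at those doses and had HGF and IGF-1 (10 ng/mL each), and MDM IV had IGF-1 at the same dose. The medium in use at day 8 cannot be placed from these sources. CHIR99021 inhibits the kinase that marks β-catenin for destruction and so turns on Wnt signalling, IWR-1-endo blocks that pathway by stabilising Axin, and SB431542 and LDN193189 block the receptors for Nodal/activin and for bone morphogenetic proteins (BMPs). Time, medium and the absence or presence of feeders changed together, so their parts in any difference cannot be told apart.

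Epiblast stem cells hold a pluripotent state through NANOG, SOX2 and related factors, with activin and FGF supplied from outside. Skeletal muscle arises from paraxial mesoderm, whose somites give rise to cells with PAX3 and PAX7, and the regulators MYF5 and MYOD1 then commit those cells to muscle. PAX3 and PAX7 are also made in the dorsal neural tube, so neither names a lineage alone. The neural tube is patterned along its axis by OTX, EN, PAX2/5/8 and HOX genes, and its dorsal edge, the roof plate, secretes Wnts and BMPs.

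Values are TPM, a level corrected for gene length and scaled so that all genes of a library sum to a fixed total. Of the 15031 genes in the table, 14957 had more than 0.5 TPM in at least 50% of the libraries of some group and were tested with limma. A log2 difference is the mean of log2(TPM + 1) in pgEpiSCs-MPCs minus the equally weighted mean of both passages, with its standard error (SE), and a gene was called at a Benjamini-Hochberg adjusted p below 0.05 over all tested genes. By that rule 68.9% of all tested genes were called, 47.5% higher and 21.4% lower. A call with a log2 difference beyond 2 was made for 5.45% upwards and for 2.02% downwards. In 43.9% of tested genes the call was higher with both pgEpiSCs-MPCs libraries above all 6 pgEpiSCs libraries, and in 18.5% it was lower with both below. Each count of list members in the paragraphs that follow stands against these shares, and lists were described, not tested as sets.

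The fixed total was divided differently in the groups. The 13 genes of the mitochondrial genome took 17.1% and 15.8% of TPM in pgEpiSCs-MPCs, against 19.8% to 24.9% in pgEpiSCs. The median log2 difference of all tested genes was 0.24, and differences are best read relative to that shift. Under median-of-ratios scaling, which sets the shift to about 0, 33.5% of tested genes were called higher and 32.7% lower. Of the 10301 called genes 7589 kept their call under each of 4 other scalings that tested them, and so did all 1117 with a log2 difference beyond 2 in either direction. Of the 4, 1 leaves out the mitochondrial genes and 1 the 100 most abundant genes, so 91 called genes, 4 of them beyond 2, were tested in fewer than 4. Where no scaling is mentioned, a named call held in each that tested the gene, which was 3 for LEFTY2, COL1A1, COL3A1, ENO1 and TAGLN. A count of list members without scalings is that of the TPM scale, and some of its calls can be lost under other scalings. In 485 tested genes both pgEpiSCs-MPCs libraries were listed at 0, and in 363 all 6 pgEpiSCs libraries were. The difference of such a gene depends on the 1 TPM added, so none is given for it.

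The label "MPCs", for myogenic progenitor cells, was checked against defining markers. PAX7, the satellite-cell factor, had 20.6 and 25.5 TPM in pgEpiSCs-MPCs, against 0.459, 0.732 and 0.124 TPM in pgEpiSCs-Low and 0.303, 0.26 and 0.112 TPM in pgEpiSCs-high. MYOD1, the muscle determination factor, had 10.4 and 14.8 TPM in pgEpiSCs-MPCs, against 0, 0.097 and 0 TPM in pgEpiSCs-Low and 0 TPM in all 3 pgEpiSCs-high libraries. Both rose, with log2 differences of 4.18 and 3.72. MYF5, the earliest determination factor of somitic muscle, had 0.303 and 0.133 TPM in pgEpiSCs-MPCs, against 3.75, 2.67 and 1.88 TPM in pgEpiSCs-Low and 0, 1.05 and 0.563 TPM in pgEpiSCs-high, and was called lower (log2 difference -0.94, SE 0.23, adjusted p = 0.0023), although 1 pgEpiSCs-high library was at 0. Against pgEpiSCs-high alone it did not pass (adjusted p = 0.36). Of the genes that mark the mesoderm before muscle, MEOX1 reached only 1.22 and 0.297 TPM in pgEpiSCs-MPCs and was listed at 0 in pgEpiSCs, and FOXC2 and PAX1 were listed at 0 in all 8 libraries. PDGFRA did not pass, with 1.16 and 1.04 TPM in pgEpiSCs-MPCs against 0.603 to 1.2 TPM in pgEpiSCs. In all, 6 of 13 tested members of the presomitic list and 6 of 15 of the somite list were higher. These shares are no larger than the 47.5% of all tested genes called higher. PAX3, DLL1, DLL3, PCDH8 and RIPPLY1 were among those that rose. In the myogenic list 11 of 17 were higher and 4 lower, and 5 rose beyond 2, against 5.45% of all tested genes. Its summed TPM was 271 and 294 in pgEpiSCs-MPCs, against 53.7 to 73.9 in pgEpiSCs. PAX3 and PAX7 belong to it and also to the roof plate list. The highest medians of the 40 lists were those of the dorsal neural tube with roof plate and of the midbrain with hindbrain (4.87 and 3.82). The lists were chosen with earlier results of these data known, so that ranking is a description and no test of the label. Of the determination factors, MYOD1 follows the label and MYF5 does not. PAX7 rose too, but it is also a member of the roof plate list and does not name a lineage alone. The names pgEpiSCs-MPCs and day 8 are used only as labels. These are bulk libraries, so a few cells with much of an RNA and many cells with little cannot be told apart.

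The study counted its progenitors by surface protein in flow cytometry, on cells in MDM III, while the values here are RNA levels. Of the genes of those proteins, NCAM1 (CD56) was higher, with 54.8 and 61.0 TPM in pgEpiSCs-MPCs against 10.2 to 14.1 TPM in pgEpiSCs. PECAM1 (CD31) did not pass, with 0.656 and 1.22 TPM in pgEpiSCs-MPCs against 0.715 to 1.38 TPM in pgEpiSCs. PTPRC (CD45) was not analysed here.

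Sequences are shown where a pair of neighbours or a pathway moved together. ZIC1 and ZIC4, zinc-finger factors of the dorsal neural tube, were both among the 12 largest rises. In the RefSeq annotation of Sscrofa11.1 they lie head to head on chromosome 13, and 44 bases separate their starts. Those 44 bases are in capitals in the stretch chr13:87740677-87740816, read on the forward strand.
ZIC4-ZIC1: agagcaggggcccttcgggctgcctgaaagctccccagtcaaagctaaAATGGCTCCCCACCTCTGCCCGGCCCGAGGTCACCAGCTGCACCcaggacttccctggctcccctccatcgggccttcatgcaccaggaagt
The 3 called Wnt target genes with the largest log2 differences among those with a match are shown by the window from 250 bases before to 50 after the annotated start, read on the gene's strand, with matches to the TCF/LEF motif in capitals. The motif was searched as CTTTGAT on both strands (ATCAAAG on the other), and a window with at least 1 match was counted once. The windows are chr12:12343158-12343457 for AXIN2, chr6:34319535-34319834 for NKD1 and chr8:113824261-113824560 for LEF1, with AXIN2 and NKD1 on the reverse strand and LEF1 on the forward strand. Counted from the annotated start as 0, the matches begin at -16 in AXIN2, -29 in NKD1 and -238 in LEF1.
AXIN2: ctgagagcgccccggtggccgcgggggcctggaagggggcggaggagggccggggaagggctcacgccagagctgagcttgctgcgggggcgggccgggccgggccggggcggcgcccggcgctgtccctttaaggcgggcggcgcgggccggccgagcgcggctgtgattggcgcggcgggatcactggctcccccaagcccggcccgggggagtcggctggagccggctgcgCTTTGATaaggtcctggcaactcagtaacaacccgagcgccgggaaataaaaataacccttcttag
NKD1: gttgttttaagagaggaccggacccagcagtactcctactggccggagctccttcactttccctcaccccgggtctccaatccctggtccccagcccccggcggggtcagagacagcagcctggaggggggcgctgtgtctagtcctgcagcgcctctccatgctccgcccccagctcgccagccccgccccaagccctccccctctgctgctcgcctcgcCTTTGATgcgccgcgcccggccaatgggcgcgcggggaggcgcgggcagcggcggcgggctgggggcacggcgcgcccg
LEF1: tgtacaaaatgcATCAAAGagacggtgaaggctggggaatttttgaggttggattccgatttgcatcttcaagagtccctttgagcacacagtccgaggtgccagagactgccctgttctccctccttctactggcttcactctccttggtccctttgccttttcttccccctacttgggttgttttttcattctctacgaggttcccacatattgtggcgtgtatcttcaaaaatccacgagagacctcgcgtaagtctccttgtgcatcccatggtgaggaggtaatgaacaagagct
Of the 17 tested Wnt target genes 6 had a match in this window (AXIN2, CCND1, DKK4, LEF1, NKD1 and TCF7), and 1.95% of 12386 windows of the same length had one. A FOXH1 motif, searched as TGTNNATT on both strands (AATNNACA on the other), was found in 4 of 22 windows of Nodal/activin genes and in 7.51% of all windows. A match is a description of letters and not of binding.

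Pluripotency genes fell almost as a whole. Of 14 tested members 12 were lower and 1 was higher, with a median log2 difference of -3.08 beside 0.24 over all genes. PRDM14, a repressor that guards the pluripotent state, was listed at 0 in both day 8 libraries, against 97.6, 87.9 and 91.3 TPM in pgEpiSCs-Low and 125, 99.3 and 104 TPM in pgEpiSCs-high (adjusted p = 2.4e-15). NANOG was likewise listed at 0 at day 8, against 214 to 254 TPM in pgEpiSCs, and 2 copies of it are annotated, which could share reads. ZFP42 (REX1) had 1.77 and 1.55 TPM in pgEpiSCs-MPCs, against 75.2, 86.7 and 99.0 TPM in pgEpiSCs-Low and 266, 273 and 253 TPM in pgEpiSCs-high (log2 difference -5.84, SE 0.10, adjusted p = 7.9e-15). Of the tested members it had the widest gap between passages. The germline and stem cell regulators NR6A1 and ZSCAN10 were lower, with log2 differences of -3.78 and -5.23. DNMT3B, the methyltransferase that is high in epiblast, had 29.8 and 31.8 TPM in pgEpiSCs-MPCs, against 359.6, 355 and 383 TPM in pgEpiSCs-Low and 536, 537 and 499 TPM in pgEpiSCs-high (log2 difference -3.79, SE 0.07, adjusted p = 8.8e-15).

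Not all of the list went. SOX2, which neural progenitors keep, had 85.4 and 93.4 TPM in pgEpiSCs-MPCs, against 92.0, 78.0 and 82.0 TPM in pgEpiSCs-Low and 83.8, 78.3 and 61.2 TPM in pgEpiSCs-high and did not pass (adjusted p = 0.21). LIN28B, an inhibitor of let-7 processing, was the member that rose, with 113 and 118 TPM in pgEpiSCs-MPCs against 69.5 to 84.3 TPM in pgEpiSCs. Its relative LIN28A had 72.8 and 104 TPM in pgEpiSCs-MPCs against 1198 to 1514 TPM in pgEpiSCs, a fall that left it well above the floor (log2 difference -3.87, SE 0.22, adjusted p = 1.4e-09). KLF4, KLF5 and TRIM71 were lower too, with log2 differences of -1.19, -1.69 and -2.37. POU5F1 was not analysed here.

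Epiblast and gastrulation genes divided. In the list of primed epiblast genes 9 of 14 were lower and 3 higher, and in that of the primitive streak 6 of 11 were lower and 4 higher. OTX2, shared by epiblast and forebrain/midbrain, was 215 and 212 TPM at day 8 against 303, 305 and 321 TPM in pgEpiSCs-Low and 205, 205 and 225 TPM in pgEpiSCs-high, a small fall (log2 difference -0.26, SE 0.06, adjusted p = 0.0012) that was called against pgEpiSCs-Low and not against pgEpiSCs-high. POU3F1, an epiblast POU factor, had 0.461 and 1.21 TPM in pgEpiSCs-MPCs against 5.32 to 15.6 TPM in pgEpiSCs (log2 difference -2.67). The streak and endoderm regulators EOMES, MIXL1 and GSC were each lower, with log2 differences of -3.10, -1.79 and -2.79, and EOMES was left with 0.521 and 0.327 TPM. FOXA2, which specifies endoderm and floor plate, was listed at 0 at day 8, against 58.3, 58.7 and 62.2 TPM in pgEpiSCs-Low and 17.0, 14.6 and 12 TPM in pgEpiSCs-high. CER1, a secreted Nodal and BMP antagonist, was also listed at 0, against 80.9, 87.2 and 84.4 TPM in pgEpiSCs-Low and 86.5, 78.0 and 87.5 TPM in pgEpiSCs-high. TBXT was not analysed here. WNT3, FGF8 and SP8 of the streak list were higher (log2 differences 2.60, 2.31 and 1.58), and these genes also act in the neural tube.

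**Figure D1:**
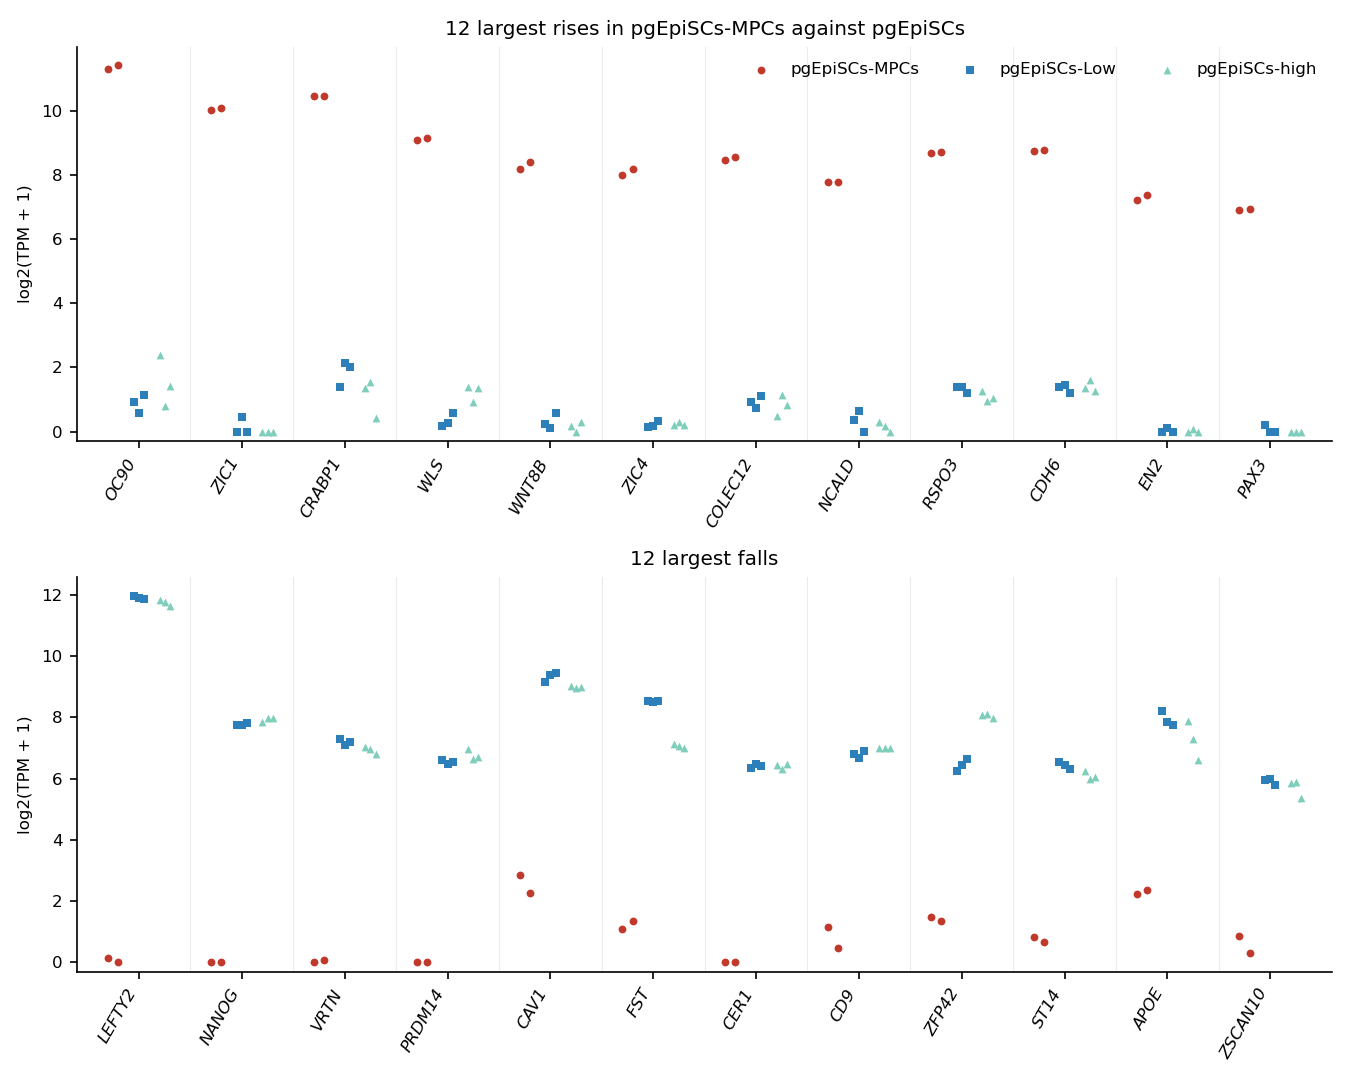
Log2(TPM + 1) on the vertical axis of the 12 genes with the largest rises (top) and the 12 with the largest falls (bottom), 1 point per library, for pgEpiSCs-MPCs (red circles), pgEpiSCs-Low (blue squares) and pgEpiSCs-high (green triangles). In every gene shown the 2 day 8 libraries lie apart from all 6 pgEpiSCs libraries, and among the falls ZFP42 and FST also differ between the passages.

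The largest rises held neural, Wnt and adhesion genes. COLEC12, a scavenger receptor of the collectin family, had 351 and 374 TPM in pgEpiSCs-MPCs, against 0.902, 0.653 and 1.14 TPM in pgEpiSCs-Low and 0.386, 1.19 and 0.767 TPM in pgEpiSCs-high (log2 difference 7.64, SE 0.15, adjusted p = 3.0e-14). NCALD, a neuronal calcium sensor, had 218 and 221 TPM in pgEpiSCs-MPCs, against 0.292, 0.544 and 0 TPM in pgEpiSCs-Low and 0.225, 0.116 and 0 TPM in pgEpiSCs-high (log2 difference 7.54, SE 0.19, adjusted p = 3.6e-13). In both genes the day 8 libraries lay close together and every pgEpiSCs library was near the floor. OC90, an otoconial matrix protein, headed the list at 2540.5 and 2734 TPM against at most 4.18 TPM in pgEpiSCs. CRABP1, a binder of retinoic acid, stood at 1415 and 1417 TPM against at most 3.35 TPM.

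The largest falls went beyond the pluripotency list. VRTN, known for its part in the number of vertebrae in pigs, had 0 and 0.058 TPM in pgEpiSCs-MPCs, against 154, 136 and 144 TPM in pgEpiSCs-Low and 129.7, 123 and 110.2 TPM in pgEpiSCs-high (log2 difference -7.02, SE 0.09, adjusted p = 1.1e-15). CAV1, the coat protein of caveolae, had 6.15 and 3.84 TPM in pgEpiSCs-MPCs, against 569.8, 673 and 693 TPM in pgEpiSCs-Low and 521, 501 and 512 TPM in pgEpiSCs-high (log2 difference -6.61, SE 0.13, adjusted p = 2.2e-14). CD9, a tetraspanin, had 1.20 and 0.397 TPM in pgEpiSCs-MPCs, against 112, 101 and 119 TPM in pgEpiSCs-Low and 127, 128 and 128 TPM in pgEpiSCs-high (log2 difference -6.09, SE 0.12, adjusted p = 2.2e-14). In all 3 the day 8 libraries were below every pgEpiSCs library. ST14, a membrane protease of epithelia, fell by 5.51 on the log2 scale, with 0.788 and 0.586 TPM in pgEpiSCs-MPCs against 62.1 to 91.8 TPM in pgEpiSCs. APOE, the lipoprotein component, varied more among pgEpiSCs, with 3.65 and 4.09 TPM in pgEpiSCs-MPCs, against 297, 228 and 213 TPM in pgEpiSCs-Low and 235, 155 and 96.0 TPM in pgEpiSCs-high, and still did not overlap with day 8.

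General neural plate genes were higher in 26 of 30 tested members and lower in 2, with a median log2 difference of 2.53. PAX6, a regulator of neural and eye progenitors, had 45.9 and 49.7 TPM in pgEpiSCs-MPCs, against 0 TPM in all 3 pgEpiSCs-Low libraries and 0.31, 0 and 0.137 TPM in pgEpiSCs-high (log2 difference 5.51, SE 0.11, adjusted p = 2.8e-14). ZIC1 had 1048 and 1094 TPM at day 8, against at most 0.363 TPM in pgEpiSCs. Its neighbour ZIC4, whose start lies across the 44 printed bases, had 257 and 292 TPM in pgEpiSCs-MPCs against 0.091 to 0.258 TPM in pgEpiSCs. The radial glia lipid binder FABP7 and the hindbrain and spinal cord factor IRX3 were both at or near the floor in pgEpiSCs and reached 34.2 and 33.0 TPM and 21.1 and 24.2 TPM at day 8. POU3F3, a neural POU factor listed at 0 in all 6 pgEpiSCs libraries, had 42.5 and 39.0 TPM. The members that fell were the anterior genes HESX1 (3.98 and 3.59 TPM in pgEpiSCs-MPCs against 52.7 to 90.3 TPM in pgEpiSCs) and RAX (listed at 0 at day 8, against 0.248 to 3.50 TPM).

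Genes of the midbrain-hindbrain boundary rose as a set of transcription factors and signals. Of 16 tested members 11 were higher and 2 lower, with a median of 3.82. The engrailed genes, which pattern this region, were clear in both day 8 libraries. EN2 had 147 and 165 TPM in pgEpiSCs-MPCs, against 0, 0.075 and 0 TPM in pgEpiSCs-Low and 0, 0.064 and 0 TPM in pgEpiSCs-high (log2 difference 7.26, SE 0.11, adjusted p = 1.9e-15), and EN1 had 32.5 and 32.1 TPM in pgEpiSCs-MPCs against 0 to 0.497 TPM in pgEpiSCs. PAX5, from the PAX2/5/8 family, had 111 and 113 TPM in pgEpiSCs-MPCs, against 0.439, 0.354 and 0.554 TPM in pgEpiSCs-Low and 0.991, 0.835 and 0.895 TPM in pgEpiSCs-high (log2 difference 6.09, SE 0.09, adjusted p = 3.3e-15). PAX2 had 16.8 and 17.3 TPM at day 8. GBX2, which marks the hindbrain side, had 16.8 and 17.0 TPM. Both were listed at 0 in all 6 pgEpiSCs libraries. OTX1, on the midbrain side, had 86.8 and 103 TPM in pgEpiSCs-MPCs, against 0.369, 0 and 0 TPM in pgEpiSCs-Low and 0.142, 0 and 0 TPM in pgEpiSCs-high (log2 difference 6.47, SE 0.13, adjusted p = 3.7e-14). LMX1B, needed for the boundary's signals, had 104 and 108 TPM in pgEpiSCs-MPCs against 0 to 0.371 TPM in pgEpiSCs. Ligands of the boundary were higher as well. FGF8 had 43.5 and 40.2 TPM in pgEpiSCs-MPCs, against 6.68, 5.56 and 5.66 TPM in pgEpiSCs-Low and 12.6, 10.7 and 6.88 TPM in pgEpiSCs-high (log2 difference 2.31, SE 0.18, adjusted p = 4.0e-08). FGF17 had 227 and 245 TPM in pgEpiSCs-MPCs, against 12.6, 8.86 and 8.65 TPM in pgEpiSCs-Low and 57.8, 34.1 and 34.7 TPM in pgEpiSCs-high (log2 difference 3.47, SE 0.34, adjusted p = 5.0e-07). FGF17 was higher in pgEpiSCs-high than in pgEpiSCs-Low, and its log2 difference was 4.44 against pgEpiSCs-Low and 2.50 against pgEpiSCs-high.

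Dorsal neural tube and roof plate genes had the highest median of the 40 lists, 4.87, with 16 of 19 members higher and 2 lower. LMX1A, which specifies the roof plate, had 112 and 113 TPM in pgEpiSCs-MPCs, against 2.40, 1.57 and 2.27 TPM in pgEpiSCs-Low and 0.273, 0.633 and 0.905 TPM in pgEpiSCs-high (log2 difference 5.69, SE 0.15, adjusted p = 5.4e-13). GDF7, a BMP-family ligand of the roof plate, had 28.2 and 23.0 TPM and was listed at 0 in every pgEpiSCs library (adjusted p = 2.8e-13). MSX1 and MSX2, BMP-responsive homeobox factors, were higher. MSX1 had 26.3 and 31.5 TPM in pgEpiSCs-MPCs against 0 to 0.128 TPM in pgEpiSCs. MSX2 had 72.7 and 88.3 TPM in pgEpiSCs-MPCs against 0.982 to 2.79 TPM in pgEpiSCs. Among R-spondins, which strengthen Wnt signalling, RSPO3 had 411 and 416 TPM in pgEpiSCs-MPCs, against 1.62, 1.61 and 1.31 TPM in pgEpiSCs-Low and 1.43, 0.917 and 1.08 TPM in pgEpiSCs-high (log2 difference 7.48, SE 0.11, adjusted p = 1.5e-15). RSPO2 had 97.9 and 109 TPM in pgEpiSCs-MPCs against 0.083 to 1.16 TPM in pgEpiSCs. OLIG3, of the dorsal progenitor domains, had 53.7 and 50.9 TPM and was listed at 0 in pgEpiSCs. ATOH1, which marks rhombic lip progenitors, had 27.3 and 25.5 TPM in pgEpiSCs-MPCs against 0 to 0.226 TPM in pgEpiSCs. PAX3 had 118 and 121 TPM in pgEpiSCs-MPCs against 0 to 0.154 TPM in pgEpiSCs. PAX7, whose values are given with the label, is also among the higher members of this list. The roof plate itself later gives rise to choroid plexus, and TTR, the marker of that tissue once mature, had at most 0.085 TPM in any of the 8 libraries. Medians of these lists include genes at the floor in pgEpiSCs and depend on the pseudocount. With 0.1 TPM added in place of 1 the median was 6.58 for the roof plate list, 6.22 for the midbrain-hindbrain list and 3.53 for the neural plate list.

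**Figure D2:**
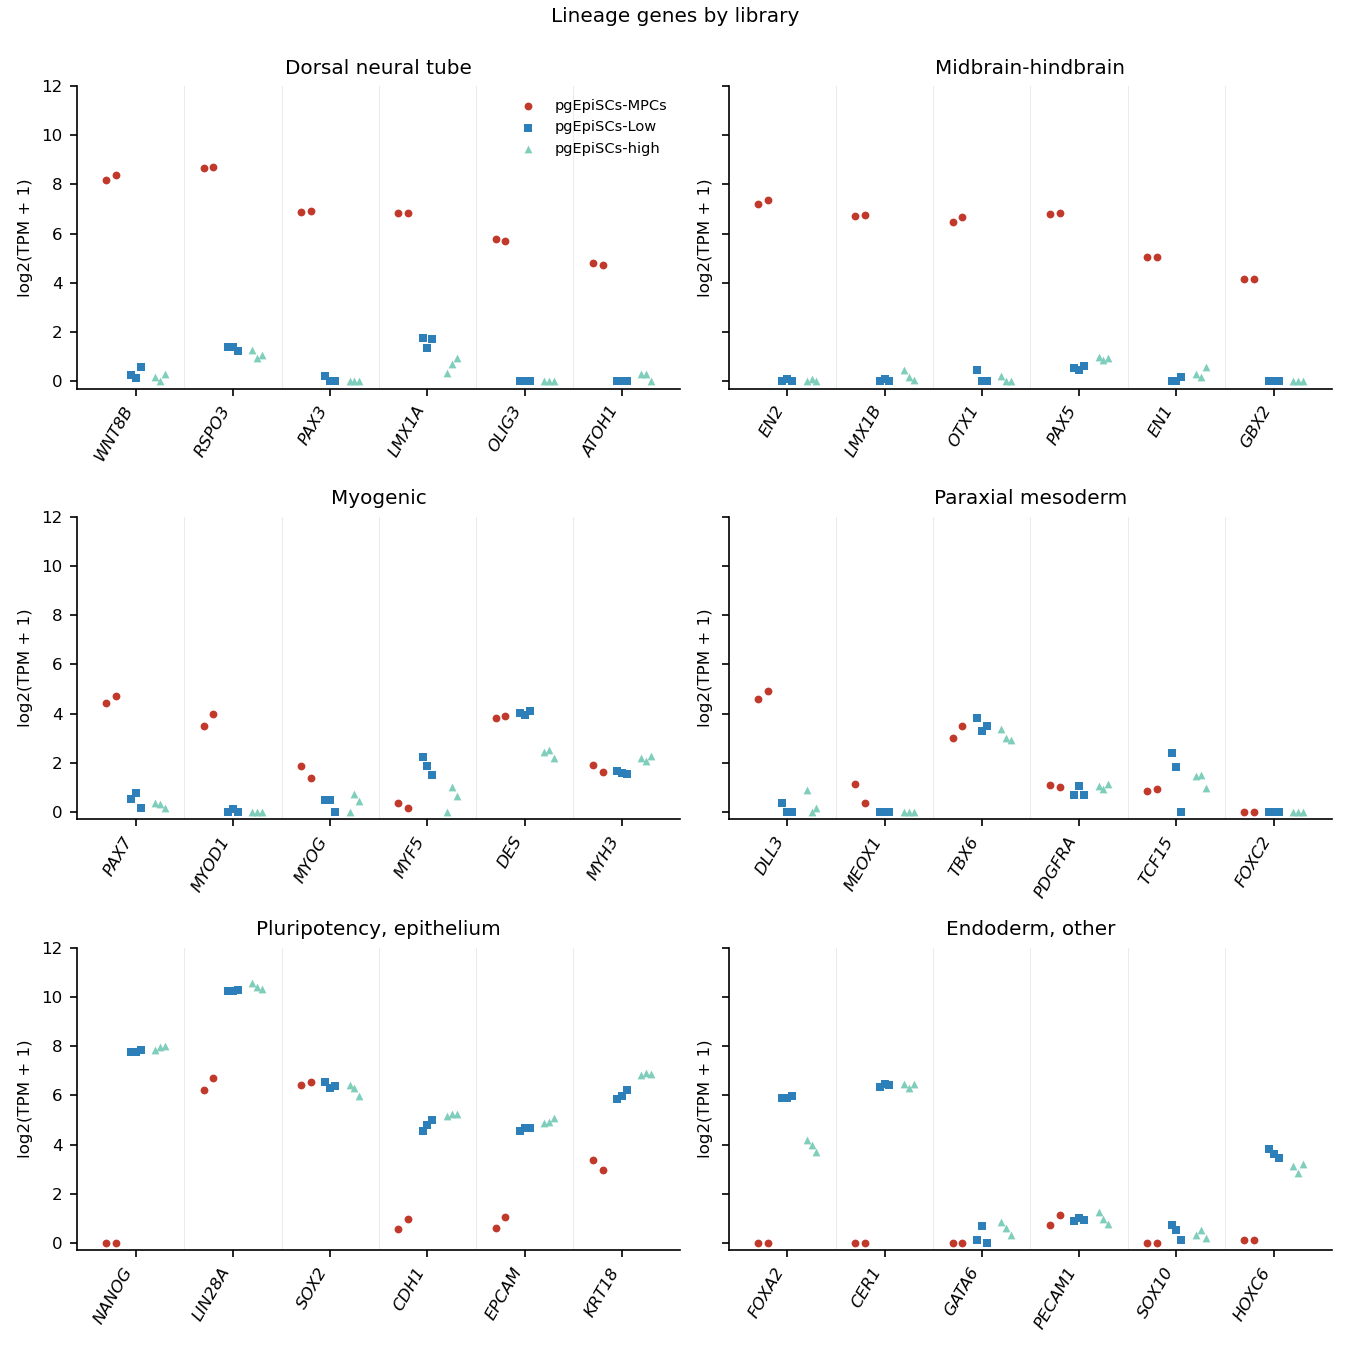
Log2(TPM + 1) on the vertical axis of 36 lineage genes in 6 panels, 1 point per library, for pgEpiSCs-MPCs (red circles), pgEpiSCs-Low (blue squares) and pgEpiSCs-high (green triangles). Dorsal and midbrain-hindbrain genes are high only in the red points among these 8 libraries, PAX7 and MYOD1 lie above the other groups at lower levels, and the mesoderm genes other than DLL3 and MEOX1 overlap between groups or are at 0.

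HOX genes, which mark the hindbrain behind its front end, the spinal cord and the trunk mesoderm, were not raised. None of 33 tested members was higher and 20 were lower. Every member was below 1 TPM in both day 8 libraries. The summed TPM of the list was 0.649 in one day 8 library and 2.33 in the other, against 44.4 to 93.6 in the pgEpiSCs libraries. HOXC6 had 0.095 and 0.083 TPM in pgEpiSCs-MPCs, against 13, 11.096 and 9.86 TPM in pgEpiSCs-Low and 7.63, 6.11 and 8.19 TPM in pgEpiSCs-high (log2 difference -3.21, SE 0.12, adjusted p = 1.9e-11). HOXC8 had 0.156 and 0 TPM in pgEpiSCs-MPCs, against 9.18, 8.86 and 8.15 TPM in pgEpiSCs-Low and 5.50, 4.76 and 4.92 TPM in pgEpiSCs-high (log2 difference -2.83, SE 0.11, adjusted p = 2.4e-11). HOXB9 and HOXA7, of the trunk, had log2 differences of -2.24 and -2.45. The feeder cells under pgEpiSCs are fibroblasts, and the mesenchymal gene PRRX1 was also high there (2.78 and 3.19 TPM in pgEpiSCs-MPCs against 47.1 to 68.3 TPM in pgEpiSCs). Its list is that of mesenchyme and fibroblasts. In it 10 of 19 were higher at day 8 and 4 lower, beside 47.5% and 21.4% of all tested genes. PRRX1 and COL1A1 were among the lower members. The summed TPM of that list was 4112 and 4226 in pgEpiSCs-MPCs, against 862 to 1179 in pgEpiSCs. TAGLN and ACTA2, whose values are given with the sarcomere genes, are part of that sum. The part of feeder RNA in the HOX and PRRX1 values was not tested.

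Paraxial mesoderm genes divided into members that rose and members that did not pass. In the presomitic list 6 of 13 were higher and none lower, with a median of 0.13, and 4 of the 13 rose beyond 2, against 5.45% of all tested genes. Of the 13, 5 were below 1 TPM in all 6 pgEpiSCs libraries and 5 in both day 8 libraries. The summed TPM of the list was 483 and 527 in pgEpiSCs-MPCs, against 80.1 to 132 in pgEpiSCs. The 6 higher members were DLL1, DLL3, LFNG, NKD1, PCDH8 and RIPPLY1. The first 3 are Notch ligands and a Notch glycosyltransferase, and NKD1 is a Wnt target, all also found in neural progenitors. TBX6, which directs cells to paraxial mesoderm, had 7.07 and 10.2 TPM in pgEpiSCs-MPCs, against 13.2, 8.89 and 10.3 TPM in pgEpiSCs-Low and 9.29, 7.12 and 6.63 TPM in pgEpiSCs-high and did not pass (adjusted p = 0.73), except under quantile normalization, where it was lower. RIPPLY1, a TBX6 antagonist of the forming somite, had 1.21 and 1.86 TPM and was listed at 0 in pgEpiSCs. PCDH8, a protocadherin of presomitic mesoderm and brain, had 135 and 164 TPM in pgEpiSCs-MPCs, against 4.65, 5.65 and 5.75 TPM in pgEpiSCs-Low and 1.5, 1.13 and 1.34 TPM in pgEpiSCs-high (log2 difference 5.29, SE 0.13, adjusted p = 1.7e-13).

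In the somite list 6 of 15 were higher and 1 was lower, with a median of 0.19. Of the 15, 11 were below 1 TPM in all 6 pgEpiSCs libraries and 7 in both day 8 libraries, so the median rests largely on genes near the floor. PAX3 led it, followed by CXCR4, the chemokine receptor of migrating precursors, which had 708 and 696 TPM in pgEpiSCs-MPCs, against 38.2, 30.4 and 41.2 TPM in pgEpiSCs-Low and 38.5, 35.8 and 46.5 TPM in pgEpiSCs-high (log2 difference 4.17, SE 0.14, adjusted p = 4.1e-12). EYA1, a transcriptional co-factor of early organ fields, was higher, with 4.73 and 4.68 TPM in pgEpiSCs-MPCs against 0.343 to 0.874 TPM in pgEpiSCs. SIX4 was lower, with 18.2 and 16.1 TPM in pgEpiSCs-MPCs against 27.2 to 31.5 TPM in pgEpiSCs. TCF15, of epithelial somites, did not pass, with 0.801 and 0.938 TPM in pgEpiSCs-MPCs against 0 to 4.28 TPM in pgEpiSCs. NKX3-2, of the sclerotome, had 1.23 and 1.44 TPM at day 8 and was listed at 0 in pgEpiSCs. The rise of PAX9 (log2 difference 0.47) was lost under 2 of 4 scalings.

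The myogenic list was higher in 11 of 17 members and lower in 4, of which 9 and 4 kept their call under all 4 scalings, with a median of 0.66. MYOG, which starts terminal differentiation, had 2.71 and 1.63 TPM in pgEpiSCs-MPCs against 0 to 0.658 TPM in pgEpiSCs (log2 difference 1.29, SE 0.20, adjusted p = 5.3e-05). HEYL, a Notch effector of satellite cells, had 3.56 and 4.59 TPM and was listed at 0 in pgEpiSCs. CDH15, M-cadherin, had 8.40 and 9.18 TPM in pgEpiSCs-MPCs, against 2.68, 1.11 and 0.753 TPM in pgEpiSCs-Low and 2.22, 2.05 and 1.18 TPM in pgEpiSCs-high (log2 difference 1.92, SE 0.24, adjusted p = 6.2e-06). MET, the HGF receptor of migrating muscle precursors, had 1.93 and 1.67 TPM in pgEpiSCs-MPCs, against 5.67, 4.73 and 6.17 TPM in pgEpiSCs-Low and 5.71, 5.95 and 7.02 TPM in pgEpiSCs-high and was lower (log2 difference -1.29, SE 0.13, adjusted p = 5.3e-07). DES, the muscle intermediate filament, had 13.2 and 14.1 TPM in pgEpiSCs-MPCs, against 15.2, 14.6 and 16.5 TPM in pgEpiSCs-Low and 4.45, 4.79 and 3.61 TPM in pgEpiSCs-high. It lay just under pgEpiSCs-Low and above pgEpiSCs-high, and its overall call (log2 difference 0.66, SE 0.08, adjusted p = 7.9e-06) was lost under 1 of 4 scalings.

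Sarcomere genes divided. Of 17 tested members 6 were higher and 2 lower, with a median of 0.07. Of the 17, 9 were below 1 TPM in all 6 pgEpiSCs libraries and 8 in both day 8 libraries. The summed TPM of the list was 675 and 678 in pgEpiSCs-MPCs, against 76.0 to 134 in pgEpiSCs. ACTC1, the cardiac and fetal muscle actin, had 199.8 and 205 TPM in pgEpiSCs-MPCs, against 3.68, 6.86 and 3.49 TPM in pgEpiSCs-Low and 3.34, 2.75 and 1.84 TPM in pgEpiSCs-high (log2 difference 5.52, SE 0.18, adjusted p = 3.7e-12). TNNT1, slow troponin T, had 221 and 236 TPM in pgEpiSCs-MPCs, against 10.9, 10.3 and 9.97 TPM in pgEpiSCs-Low and 9.99, 11.2 and 11.7 TPM in pgEpiSCs-high (log2 difference 4.30, SE 0.08, adjusted p = 9.2e-15). TPM2, a tropomyosin that non-muscle cells also make, had 232 and 214 TPM in pgEpiSCs-MPCs against 45.7 to 104 TPM in pgEpiSCs. The embryonic myosin heavy chain MYH3 had 2.73 and 2.13 TPM in pgEpiSCs-MPCs, against 2.19, 2.00 and 1.95 TPM in pgEpiSCs-Low and 3.62, 3.23 and 3.84 TPM in pgEpiSCs-high and did not pass (adjusted p = 0.24), although 3 of 4 other scalings called it lower. TNNT2, of heart and early muscle, did not pass, with 1.26 and 0.789 TPM in pgEpiSCs-MPCs against 0 to 2.09 TPM in pgEpiSCs. MYH8, the perinatal myosin, had at most 0.124 TPM in any of the 8 libraries, and CKM, the muscle creatine kinase, at most 0.121 TPM. Actin-binding and smooth muscle type genes of the mesenchyme list were higher. ACTA2, smooth muscle actin, had 410.0 and 383 TPM in pgEpiSCs-MPCs, against 5.42, 5.32 and 4.58 TPM in pgEpiSCs-Low and 1.69, 3.49 and 1.87 TPM in pgEpiSCs-high (log2 difference 6.48, SE 0.15, adjusted p = 1.6e-13). TAGLN, transgelin, had 1468 and 1582 TPM in pgEpiSCs-MPCs, against 46.6, 38.7 and 42.2 TPM in pgEpiSCs-Low and 20.7, 20.8 and 23.3 TPM in pgEpiSCs-high (log2 difference 5.61, SE 0.08, adjusted p = 1.5e-15).

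Neural crest genes were divided, with 9 of 16 higher and 3 lower. TFAP2B, of the neural plate border and dorsal neurons, had 11.6 and 12.2 TPM at day 8 and was listed at 0 in pgEpiSCs. ETS1, of cranial crest, had 21.3 and 20.3 TPM in pgEpiSCs-MPCs against 2.77 to 5.82 TPM in pgEpiSCs. TFAP2A, its relative, was higher, with 3.68 and 2.62 TPM in pgEpiSCs-MPCs, against 0.595, 0.158 and 0.885 TPM in pgEpiSCs-Low and 0.655, 0.202 and 0.795 TPM in pgEpiSCs-high. FOXD3 and SOX10, which define specified crest, were listed at 0 in both day 8 libraries. FOXD3, also a pluripotency gene, had 2.5 to 11.118 TPM in pgEpiSCs (adjusted p = 7.7e-07), and SOX10 had 0.078 to 0.655 TPM (adjusted p = 0.034), a call lost on leaving out either day 8 library or any of 3 pgEpiSCs libraries in turn, with adjusted p from 0.057 to 0.12.

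In the otic list OC90 stood far above the rest. The list had 10 of 20 higher, 9 of which kept their call in all 4 scalings, and 2 lower, with a median of 0.27. Among all tested genes 47.5% were higher and 21.4% lower. Of the 20, 13 were below 1 TPM in all 6 pgEpiSCs libraries and 9 in both day 8 libraries. EYA2 had 33.2 and 28.3 TPM in pgEpiSCs-MPCs, against 0.439, 0.511 and 0.728 TPM in pgEpiSCs-Low and 0.762, 0.174 and 0.374 TPM in pgEpiSCs-high (log2 difference 4.42, SE 0.15, adjusted p = 6.7e-12). TECTA, a protein of the tectorial membrane, had 19.7 and 20.5 TPM in pgEpiSCs-MPCs against 5.51 to 7.0 TPM in pgEpiSCs. HMX2, of the inner ear, was listed at 0 in all 8 libraries, and GATA3, an early otic factor, had at most 0.252 TPM. NEUROG1, also of otic and dorsal neural progenitors, had 4.50 and 9.14 TPM and was listed at 0 in pgEpiSCs.

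Neuronal genes were higher in 20 of 23 members and lower in 1, with a median of 2.46. DCX, of migrating neurons, had 12.3 and 12 TPM in pgEpiSCs-MPCs, against 0.097, 0.241 and 0.215 TPM in pgEpiSCs-Low and 0.25, 0.412 and 0.028 TPM in pgEpiSCs-high (log2 difference 3.45, SE 0.19, adjusted p = 9.1e-10). STMN2, a growth cone protein, had 78.2 and 71.2 TPM in pgEpiSCs-MPCs against 8.90 to 13.6 TPM in pgEpiSCs. MAP2, of dendrites, had 85.9 and 83.9 TPM in pgEpiSCs-MPCs against 2.49 to 13.2 TPM in pgEpiSCs. In each of these genes every day 8 value was above every pgEpiSCs value. TAGLN3, a neuronal actin binder, had 192 and 197 TPM in pgEpiSCs-MPCs against 0.382 to 6.51 TPM in pgEpiSCs. The neurogenic factor NHLH1 had 19.7 and 29.6 TPM in pgEpiSCs-MPCs, against 1.51, 0 and 0 TPM in pgEpiSCs-Low and 0, 0.598 and 0 TPM in pgEpiSCs-high (log2 difference 4.32, SE 0.35, adjusted p = 6.2e-08). The neuronal RNA-binding protein ELAVL3 had 60.6 and 60.1 TPM in pgEpiSCs-MPCs against 3.34 to 10.9 TPM in pgEpiSCs. INA and NEFL, neuronal intermediate filaments, had log2 differences of 3.27 and 3.21. TUBB3, often used as a neuronal marker, was the member that was lower, with 123 and 129.9 TPM in pgEpiSCs-MPCs, against 263, 273 and 265 TPM in pgEpiSCs-Low and 274, 259 and 209.8 TPM in pgEpiSCs-high (log2 difference -1.01, SE 0.10, adjusted p = 7.0e-07). SNAP25 did not pass, with 8.23 and 9.10 TPM in pgEpiSCs-MPCs against 6.44 to 10.7 TPM in pgEpiSCs.

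Markers of other lineages differed by list. Epithelial and surface ectoderm genes were lower in 14 of 17 members and higher in none, with a median of -2.39. KRT18, a keratin of simple epithelia, had 9.21 and 6.78 TPM in pgEpiSCs-MPCs, against 57.0, 62.7 and 72.5 TPM in pgEpiSCs-Low and 114, 121 and 118 TPM in pgEpiSCs-high (log2 difference -3.30, SE 0.12, adjusted p = 8.8e-12). CLDN7, a tight junction protein, had 0.485 and 0.568 TPM in pgEpiSCs-MPCs against 10.5 to 21.3 TPM in pgEpiSCs. The epithelial splicing factor ESRP1 had 0 and 0.04 TPM in pgEpiSCs-MPCs against 7.61 to 28.1 TPM in pgEpiSCs. GRHL3, of surface ectoderm, was at 1.02 and 0.537 TPM, between the passages, and did not pass overall. In the endoderm list 4 of 10 were higher and 4 lower, and its summed TPM was 973 and 947 in pgEpiSCs-MPCs, of which CXCR4 made up 708 and 696, against 225 to 340 in pgEpiSCs. The higher ones, APOA1, CXCR4, HHEX and FOXA1, are found in other tissues too, and the call of FOXA1 was lost under all 4 scalings. GATA6 was listed at 0 at day 8 and had at most 0.816 TPM in pgEpiSCs. In the lateral and cardiac mesoderm list 2 of 10 were higher and 2 lower, and HAND2 was listed at 0 at day 8, against 0.902 to 2.29 TPM. In the endothelial and blood list 7 of 17 were higher and 5 lower, beside 47.5% and 21.4% of all tested genes. Of those calls 4 and 5 held in all 4 scalings, and CDH5 of the list was at 0 in all 8 libraries. FLI1, an ETS factor that neural crest and endothelium share, was higher in it, with 14.9 and 14.5 TPM in pgEpiSCs-MPCs against 0 to 0.185 TPM in pgEpiSCs.

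**Figure D3:**
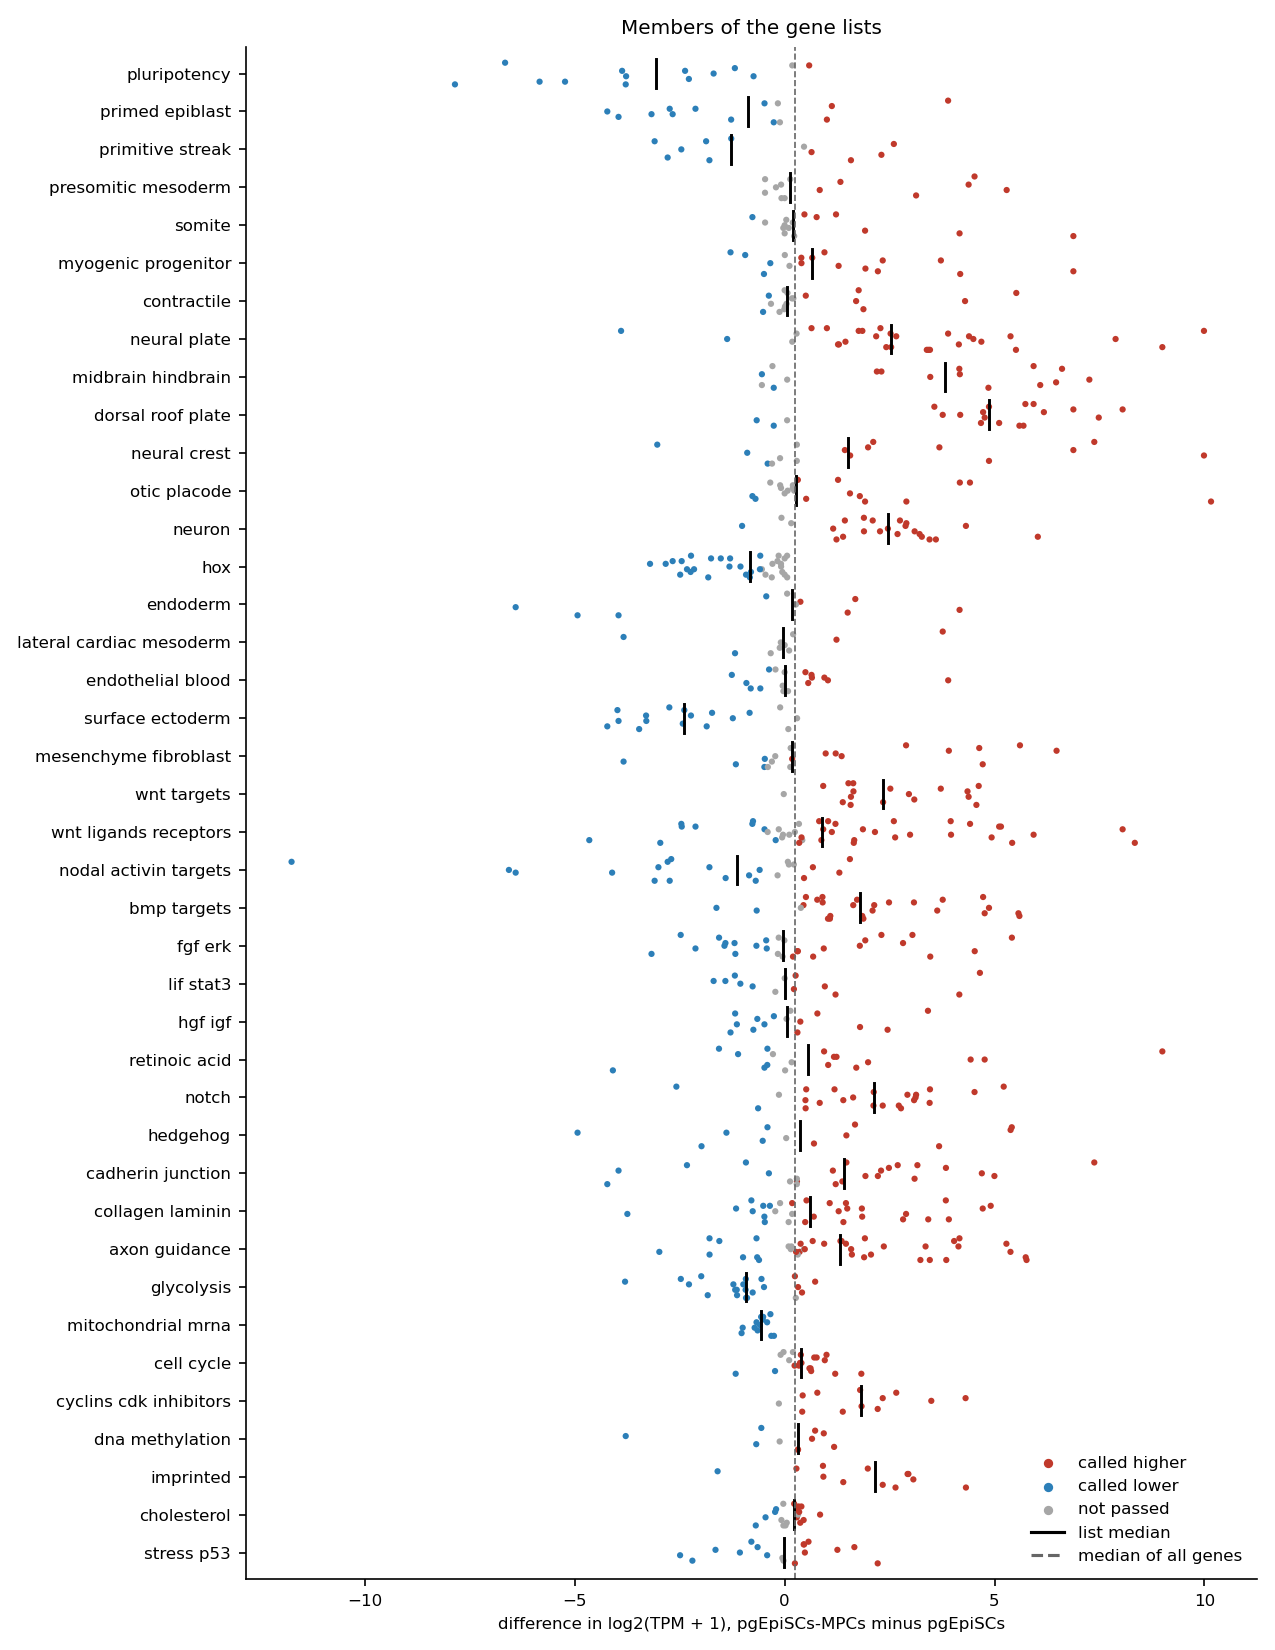
Log2 difference (pgEpiSCs-MPCs minus pgEpiSCs) on the horizontal axis of the members of 40 gene lists, 1 row per list and 1 point per gene, red where called higher, blue where called lower and grey where not passed. Black bars are list medians and the dashed line is the median of all tested genes, 0.24. The roof plate, midbrain-hindbrain and neural plate lists lie furthest to the right, and the pluripotency, surface ectoderm and streak lists furthest to the left.

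Wnt targets rose together. Of 17 tested target genes 16 were higher, 15 of them in all 4 scalings, and none was lower, with a median log2 difference of 2.35. AXIN2, the feedback inhibitor most used as a readout, had 168 and 179 TPM in pgEpiSCs-MPCs, against 7.86, 4.99 and 8.43 TPM in pgEpiSCs-Low and 6.97, 5.68 and 4.91 TPM in pgEpiSCs-high (log2 difference 4.57, SE 0.15, adjusted p = 4.0e-12). LEF1, a nuclear effector and target, had 39.0 and 42.2 TPM in pgEpiSCs-MPCs, against 0.944, 0.69 and 0.319 TPM in pgEpiSCs-Low and 1.14, 1.76 and 1.72 TPM in pgEpiSCs-high (log2 difference 4.36, SE 0.15, adjusted p = 8.3e-12). SP5, a direct target, had 26.0 and 32.1 TPM in pgEpiSCs-MPCs, against 0 TPM in all 3 pgEpiSCs-Low libraries and 1.55, 0.246 and 0 TPM in pgEpiSCs-high (log2 difference 4.62, SE 0.27, adjusted p = 1.9e-09). In all 3 both day 8 libraries stood above every pgEpiSCs library. The feedback regulators NKD1, ZNRF3, RNF43, NOTUM and APCDD1 had log2 differences of 4.38, 3.09, 2.96, 2.35 and 3.72. CCND1 and BAMBI, targets with other inputs too, had log2 differences of 1.38 and 1.63. The promoter matches printed above belong to genes of this group, and ADAMTS18 was the member that did not pass, with at most 0.335 TPM in any of the 8 libraries.

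Wnt ligands and receptors changed one by one. Of 42 tested, 25 were higher and 9 lower, with 22 and 9 kept in all 4 scalings. WLS, which carries Wnts out of the cell, had 546 and 566 TPM in pgEpiSCs-MPCs against 0.123 to 1.64 TPM in pgEpiSCs. The roof plate ligand WNT3A had 238 and 246 TPM in pgEpiSCs-MPCs, against 8.10, 7.79 and 4.09 TPM in pgEpiSCs-Low and 6.24, 4.71 and 6.20 TPM in pgEpiSCs-high (log2 difference 5.11, SE 0.20, adjusted p = 2.1e-11). WNT8B, of the dorsal forebrain and midbrain, had 291 and 334 TPM in pgEpiSCs-MPCs against 0 to 0.505 TPM in pgEpiSCs. Both ligands were high in both day 8 libraries. WNT7B had 40.1 and 44.5 TPM in pgEpiSCs-MPCs against 0 to 0.061 TPM in pgEpiSCs. WNT1, of the boundary and roof plate, had 52.4 and 68.8 TPM at day 8 and was listed at 0 in pgEpiSCs. WNT10B had 36.2 and 36.8 TPM in pgEpiSCs-MPCs against 0 to 0.175 TPM in pgEpiSCs. The annotated WNT1 and WNT10B overlap by 3322 bases on opposite strands, and no source used here says that counting used strand, so reads of that stretch cannot be told apart. WNT8A, a ligand of the early embryo, was lower, with 0.074 and 0.26 TPM in pgEpiSCs-MPCs, against 21.3, 15.7 and 16.0 TPM in pgEpiSCs-Low and 1.08, 0.854 and 1.83 TPM in pgEpiSCs-high (log2 difference -2.46, SE 0.16, adjusted p = 5.4e-09).

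Among the frizzled receptors FZD10 had 654 and 704 TPM in pgEpiSCs-MPCs, against 13.5, 12.8 and 12 TPM in pgEpiSCs-Low and 38.7, 32.8 and 34.0 TPM in pgEpiSCs-high (log2 difference 4.93, SE 0.09, adjusted p = 2.3e-14). FZD5 and FZD8, of the same family, were lower. FZD5 had 0.268 and 0.321 TPM in pgEpiSCs-MPCs, against 35.0, 34.8 and 31.7 TPM in pgEpiSCs-Low and 29.1, 29.9 and 29.7 TPM in pgEpiSCs-high (log2 difference -4.66, SE 0.13, adjusted p = 7.0e-13). FZD8 had 5.44 and 7.29 TPM in pgEpiSCs-MPCs, against 86.5, 74.9 and 75.0 TPM in pgEpiSCs-Low and 17.8, 10.7 and 8.43 TPM in pgEpiSCs-high (log2 difference -2.12, SE 0.22, adjusted p = 8.4e-07). FZD7 was still at 54.6 and 55.6 TPM, against 59.0 to 97.7 TPM. Secreted Wnt inhibitors were divided. SFRP1 was lower, with 32.7 and 32.3 TPM in pgEpiSCs-MPCs against 163 to 202 TPM in pgEpiSCs. FRZB was higher, with 35.2 and 35.0 TPM in pgEpiSCs-MPCs against 0.228 to 1.87 TPM in pgEpiSCs, and so was WIF1, with 16.5 and 16.5 TPM in pgEpiSCs-MPCs against 0 to 0.213 TPM in pgEpiSCs.

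Nodal/activin genes went the other way from Wnt targets. Of 22 tested members 14 were lower and 4 higher, with a median of -1.13. LEFTY2, the feedback inhibitor of Nodal, had 0.105 and 0 TPM in pgEpiSCs-MPCs, against 4010.1, 3771 and 3713 TPM in pgEpiSCs-Low and 3669, 3451 and 3147 TPM in pgEpiSCs-high, the largest fall of any gene with a symbol (log2 difference -11.75, SE 0.20, adjusted p = 7.9e-15). NODAL itself was listed at 0 at day 8, against 9.20, 10.1 and 9.17 TPM in pgEpiSCs-Low and 3.49, 3.59 and 2.73 TPM in pgEpiSCs-high. The related ligand GDF3 was also listed at 0 there, against 0.833, 3.36 and 3.42 TPM in pgEpiSCs-Low and 17.5, 8.81 and 10.9 TPM in pgEpiSCs-high. FOXH1, the nuclear partner of the pathway's SMADs, had 0.234 and 0.359 TPM in pgEpiSCs-MPCs, against 28.1, 23.5 and 20.5 TPM in pgEpiSCs-Low and 21.4, 21.3 and 15.5 TPM in pgEpiSCs-high (log2 difference -4.11, SE 0.16, adjusted p = 2.7e-11). FST, which binds activin, had 1.13 and 1.54 TPM in pgEpiSCs-MPCs, against 366, 358 and 367 TPM in pgEpiSCs-Low and 141, 132 and 126 TPM in pgEpiSCs-high (log2 difference -6.57, SE 0.12, adjusted p = 9.4e-15). SMAD7, an inhibitory SMAD, had 3.35 and 3.08 TPM in pgEpiSCs-MPCs, against 33.1, 30.2 and 29.5 TPM in pgEpiSCs-Low and 33.0, 36.7 and 35.4 TPM in pgEpiSCs-high (log2 difference -3.01, SE 0.08, adjusted p = 3.7e-13). The receptors did not fall. ACVR2A was higher, with 27.2 and 23.2 TPM in pgEpiSCs-MPCs against 7.12 to 8.85 TPM in pgEpiSCs. ACVR1B had 15.4 and 16.5 TPM in pgEpiSCs-MPCs against 9.45 to 13.1 TPM in pgEpiSCs, and its call of higher was lost under 2 of 4 scalings. ACVR2B did not pass, with 31.7 and 32.5 TPM in pgEpiSCs-MPCs against 24.1 to 30.9 TPM in pgEpiSCs.

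**Figure D4:**
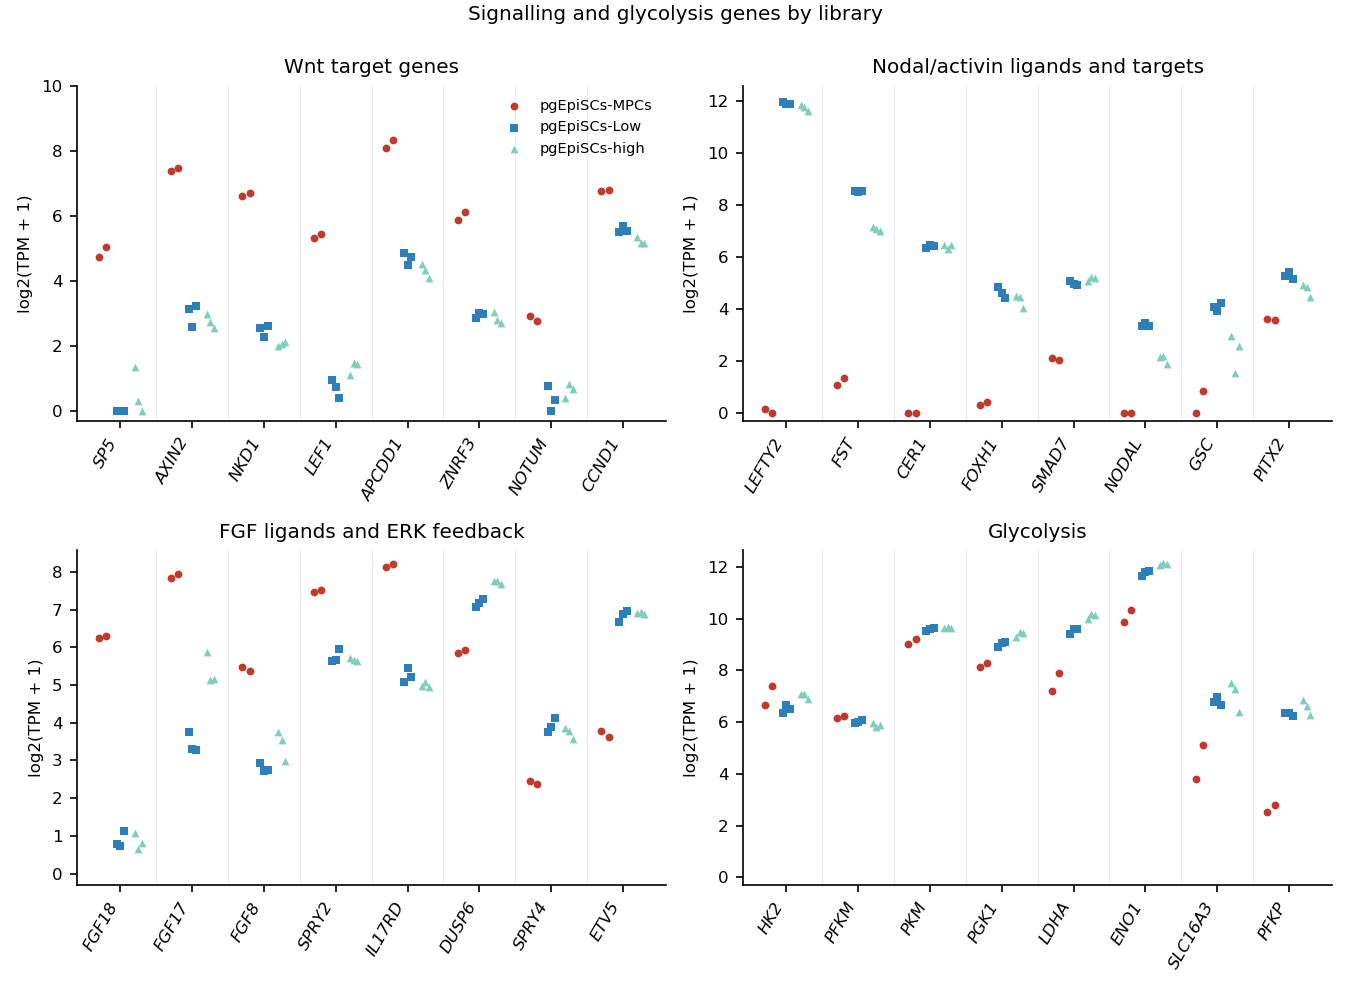
Log2(TPM + 1) on the vertical axis of 8 genes each for Wnt targets, Nodal/activin genes, FGF genes and glycolysis, 1 point per library, for pgEpiSCs-MPCs (red circles), pgEpiSCs-Low (blue squares) and pgEpiSCs-high (green triangles). The red points lie above the others for all 8 Wnt targets and below them for all 8 Nodal/activin genes. They lie above for the first 5 FGF genes and below for the last 3. For glycolysis they lie below, other than in HK2, which overlaps, and PFKM, where they lie just above. Under 2 of 4 other scalings the log2 difference of PFKM was slightly negative and not called.

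BMP genes were mostly higher. LDN193189, which inhibits BMP receptors, is listed for MDM II and MDM III. Of 26 tested members 23 were higher, 20 of them in each scaling that tested the gene, and 2 were lower, with a median of 1.79. ID1, a direct target, had 49.3 and 44.4 TPM in pgEpiSCs-MPCs, against 19.5, 17.6 and 16.4 TPM in pgEpiSCs-Low and 32.3, 28.6 and 23.7 TPM in pgEpiSCs-high (log2 difference 1.03, SE 0.13, adjusted p = 6.8e-06). ID3, another, had 1087 and 1264 TPM in pgEpiSCs-MPCs, against 579, 556 and 527 TPM in pgEpiSCs-Low and 293, 222 and 177 TPM in pgEpiSCs-high (log2 difference 1.73, SE 0.13, adjusted p = 4.3e-08). Both passages were below day 8 in each, but in opposite order. The ligand BMP4 had 67.1 and 66.7 TPM in pgEpiSCs-MPCs against 3.03 to 5.11 TPM in pgEpiSCs, and BMP7 had 105 and 114 TPM in pgEpiSCs-MPCs against 0.178 to 2.27 TPM in pgEpiSCs. GREM1, a secreted BMP antagonist, had 61.4 and 62.1 TPM in pgEpiSCs-MPCs, against 0 TPM in all 3 pgEpiSCs-Low libraries and 0.359, 0 and 2.90 TPM in pgEpiSCs-high (log2 difference 5.57, SE 0.34, adjusted p = 3.8e-09). CHRD, another antagonist, was lower with 4.80 and 6.09 TPM in pgEpiSCs-MPCs against 12.7 to 28.3 TPM in pgEpiSCs.

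FGF genes divided. The list had 13 of 28 higher and 11 lower, 9 and 11 of them in all 4 scalings. Among all tested genes 47.5% were higher and 21.4% lower. The ligands FGF18 and FGF19 were higher, and FGF18 had 75.5 and 77.6 TPM in pgEpiSCs-MPCs, against 0.715, 0.665 and 1.19 TPM in pgEpiSCs-Low and 1.10, 0.567 and 0.76 TPM in pgEpiSCs-high (log2 difference 5.41, SE 0.19, adjusted p = 9.6e-12). The ERK targets DUSP6 and ETV5 were lower. DUSP6, a phosphatase of ERK, had 56.5 and 59.9 TPM in pgEpiSCs-MPCs, against 133, 143 and 156 TPM in pgEpiSCs-Low and 214, 214 and 204 TPM in pgEpiSCs-high (log2 difference -1.56, SE 0.07, adjusted p = 5.3e-11). ETV5, an ETS factor, had 12.7 and 11.4 TPM in pgEpiSCs-MPCs, against 102, 118 and 123 TPM in pgEpiSCs-Low and 119, 122 and 118 TPM in pgEpiSCs-high (log2 difference -3.17, SE 0.08, adjusted p = 2.2e-13). SPRY4 also fell by 1.41 on the log2 scale, while the feedback inhibitors SPRY2 and IL17RD rose, with log2 differences of 1.79 and 3.04. PHLDA1, a growth factor response gene, had 227 and 254 TPM in pgEpiSCs-MPCs, against 19.5, 16.0 and 15.7 TPM in pgEpiSCs-Low and 6.61, 3.50 and 5.52 TPM in pgEpiSCs-high (log2 difference 4.53, SE 0.17, adjusted p = 1.4e-11). Of the receptors, FGFR1 had 188 and 201 TPM in pgEpiSCs-MPCs against 156 to 182 TPM in pgEpiSCs, and its call of higher (log2 difference 0.20) turned to lower under median-of-ratios scaling. The other receptors were lower. FGFR4 had 1.38 and 0.842 TPM in pgEpiSCs-MPCs against 7.77 to 14.3 TPM in pgEpiSCs. FGFR3 had 10.2 and 10.6 TPM in pgEpiSCs-MPCs against 14.9 to 37.9 TPM in pgEpiSCs. FGFR2 had 34.5 and 37.4 TPM in pgEpiSCs-MPCs against 36.1 to 68.5 TPM in pgEpiSCs, with overlap between the groups, and did not pass against pgEpiSCs-high alone (adjusted p = 0.61).

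The receptors for the other factors in the media moved separately. For LIF, LIFR had 6.15 and 5.67 TPM in pgEpiSCs-MPCs, against 1.57, 1.42 and 1.79 TPM in pgEpiSCs-Low and 2.74, 2.30 and 2.30 TPM in pgEpiSCs-high (log2 difference 1.21, SE 0.15, adjusted p = 7.3e-06). Its partner IL6ST had 63.8 and 55.8 TPM in pgEpiSCs-MPCs against 42.5 to 57.9 TPM in pgEpiSCs, with a call that was lost under all 4 scalings. JAK1, the kinase bound to that receptor, had 178 and 181 TPM in pgEpiSCs-MPCs, against 7.01, 6.30 and 7.94 TPM in pgEpiSCs-Low and 5.82, 4.67 and 5.71 TPM in pgEpiSCs-high (log2 difference 4.65, SE 0.08, adjusted p = 9.2e-15). SOCS3, the pathway's feedback target, had 7.91 and 9.27 TPM in pgEpiSCs-MPCs, against 44.6, 39.6 and 27.7 TPM in pgEpiSCs-Low and 29.2, 15.3 and 9.38 TPM in pgEpiSCs-high (log2 difference -1.41, SE 0.28, adjusted p = 4.9e-04). For IGF-1, IGF1R had 121 and 121 TPM in pgEpiSCs-MPCs, against 70.8, 78.7 and 85.3 TPM in pgEpiSCs-Low and 64.1, 62.0 and 63.5 TPM in pgEpiSCs-high (log2 difference 0.78, SE 0.11, adjusted p = 1.7e-05). Its adaptor IRS1 had 28.5 and 29.9 TPM in pgEpiSCs-MPCs against 6.48 to 9.10 TPM in pgEpiSCs. The secreted neural gene IGFBPL1 had 97.5 and 112 TPM in pgEpiSCs-MPCs against 7.56 to 10.6 TPM in pgEpiSCs. For HGF, MET was lower, as given with the myogenic list, and its adaptor GAB1 was higher, with 33.1 and 30.8 TPM in pgEpiSCs-MPCs against 3.54 to 7.43 TPM in pgEpiSCs.

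Retinoic acid genes were higher in 9 of 18 members and lower in 6, beside 47.5% and 21.4% of all tested genes. Beside CRABP1, RDH10, which makes retinal, had 131 and 141 TPM in pgEpiSCs-MPCs, against 4.21, 3.91 and 3.98 TPM in pgEpiSCs-Low and 3.24, 4.21 and 4.80 TPM in pgEpiSCs-high (log2 difference 4.77, SE 0.11, adjusted p = 1.5e-13). CYP26C1, which degrades retinoic acid, had 31.3 and 35.9 TPM in pgEpiSCs-MPCs, against 2.51, 0.539 and 0.549 TPM in pgEpiSCs-Low and 0.744, 0.153 and 0 TPM in pgEpiSCs-high (log2 difference 4.43, SE 0.28, adjusted p = 4.1e-09). ALDH1A2, which completes the synthesis, had at most 0.267 TPM in any of the 8 libraries. The receptor RARG had 0.705 and 0.797 TPM in pgEpiSCs-MPCs, against 27.9, 24.3 and 27.7 TPM in pgEpiSCs-Low and 32.6, 31.4 and 30.0 TPM in pgEpiSCs-high (log2 difference -4.09, SE 0.09, adjusted p = 4.4e-14). CRABP2, the other binder, had 37.7 and 36.4 TPM in pgEpiSCs-MPCs against 76.8 to 159 TPM in pgEpiSCs.

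Notch genes were higher in 20 of 23 members, 17 of them in all 4 scalings, and lower in 2, with a median of 2.12. NOTCH1 had 79.9 and 94.1 TPM in pgEpiSCs-MPCs, against 10.8, 9.60 and 8.63 TPM in pgEpiSCs-Low and 18.5, 14.8 and 11.057 TPM in pgEpiSCs-high (log2 difference 2.77, SE 0.19, adjusted p = 9.2e-09). NOTCH2, also a receptor, had 276 and 299 TPM in pgEpiSCs-MPCs against 32.2 to 34.1 TPM in pgEpiSCs. The ligand DLL1 had 76.2 and 82.5 TPM in pgEpiSCs-MPCs against 5.58 to 12.2 TPM in pgEpiSCs. JAG1, of the other ligand family, had 156 and 165 TPM in pgEpiSCs-MPCs against 10.5 to 16.7 TPM in pgEpiSCs. No value overlapped between the groups in these 4 genes. The effector HES5 had 12.9 and 11.4 TPM in pgEpiSCs-MPCs against 0 to 0.699 TPM in pgEpiSCs, and HES4 had 45.3 and 48.4 TPM in pgEpiSCs-MPCs against 0.112 to 0.508 TPM in pgEpiSCs. HEY1, an effector as well, did not pass, with 5.48 and 3.94 TPM in pgEpiSCs-MPCs against 4.21 to 6.29 TPM in pgEpiSCs.

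Hedgehog genes divided, with 6 of 12 higher and 5 lower, beside 47.5% and 21.4% of all tested genes. SHH, the ventral ligand, had 0.56 and 0.492 TPM in pgEpiSCs-MPCs, against 6.52, 6.52 and 6.64 TPM in pgEpiSCs-Low and 4.77, 4.27 and 2.63 TPM in pgEpiSCs-high (log2 difference -1.98, SE 0.15, adjusted p = 2.7e-08). The target GLI1 was lower as well, with 1.24 and 1.90 TPM in pgEpiSCs-MPCs against 4.13 to 6.66 TPM in pgEpiSCs. GLI3, which is a repressor without the ligand, had 147 and 170.1 TPM in pgEpiSCs-MPCs, against 1.43, 1.73 and 2.01 TPM in pgEpiSCs-Low and 4.02, 4.17 and 4.89 TPM in pgEpiSCs-high (log2 difference 5.38, SE 0.10, adjusted p = 1.5e-14). The co-receptor BOC had 257 and 287 TPM in pgEpiSCs-MPCs against 4.32 to 6.67 TPM in pgEpiSCs, and its relative CDON had 253 and 269 TPM in pgEpiSCs-MPCs against 17.1 to 23.0 TPM in pgEpiSCs.

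In the cadherin and adhesion list 16 of 24 were higher and 5 lower. CDH1, of epithelia, had 0.484 and 0.945 TPM in pgEpiSCs-MPCs, against 22.3, 26.7 and 30.8 TPM in pgEpiSCs-Low and 34.7, 36.6 and 36.4 TPM in pgEpiSCs-high (log2 difference -4.23, SE 0.14, adjusted p = 4.5e-12). CDH2, of neural and mesenchymal cells, had 1144 and 1174 TPM in pgEpiSCs-MPCs, against 109, 117 and 124 TPM in pgEpiSCs-Low and 137, 137 and 151 TPM in pgEpiSCs-high (log2 difference 3.16, SE 0.07, adjusted p = 9.2e-14). CDH6, of the neural fold and premigratory crest, had 426 and 436 TPM in pgEpiSCs-MPCs against 1.28 to 2.06 TPM in pgEpiSCs. CDH3 had 59.3 and 70.1 TPM in pgEpiSCs-MPCs against 0.568 to 1.94 TPM in pgEpiSCs. Of the repressors of CDH1, ZEB1 had 85.7 and 86.4 TPM in pgEpiSCs-MPCs against 8.67 to 15.6 TPM in pgEpiSCs and was higher, while SNAI1 and SNAI2 did not pass.

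Matrix genes were higher in 18 of 30 members and lower in 8, 16 and 8 of them in each scaling that tested the gene. COL2A1, made by notochord, cartilage and neuroepithelium, had 327 and 354 TPM in pgEpiSCs-MPCs, against 14.3, 15.5 and 15.2 TPM in pgEpiSCs-Low and 7.80, 7.43 and 6.08 TPM in pgEpiSCs-high (log2 difference 4.91, SE 0.11, adjusted p = 6.8e-14). COL3A1, a fibrillar collagen, had 84.6 and 84.6 TPM in pgEpiSCs-MPCs, against 2.05, 0.201 and 0 TPM in pgEpiSCs-Low and 3.20, 10.3 and 5.78 TPM in pgEpiSCs-high (log2 difference 4.72, SE 0.36, adjusted p = 3.3e-08). COL4A6, of basement membranes, had 176 and 188 TPM in pgEpiSCs-MPCs against 10.4 to 12.6 TPM in pgEpiSCs. LAMB1, a laminin chain, had 7.48 and 7.62 TPM in pgEpiSCs-MPCs, against 111, 113 and 119 TPM in pgEpiSCs-Low and 111, 111 and 118 TPM in pgEpiSCs-high (log2 difference -3.75, SE 0.06, adjusted p = 7.7e-15), while LAMA1 was higher, with a log2 difference of 1.07. The fibroblast collagen COL1A1 was slightly lower, with 14.1 and 14 TPM in pgEpiSCs-MPCs, against 20.7, 17.2 and 13.3 TPM in pgEpiSCs-Low and 21.8, 25.5 and 24.8 TPM in pgEpiSCs-high (log2 difference -0.48, SE 0.11, adjusted p = 0.0013). PDGFRB, of mesenchyme and pericytes, had 58.8 and 63.5 TPM in pgEpiSCs-MPCs against 1.12 to 2.32 TPM in pgEpiSCs. LUM, of fibroblasts, had at most 2.5 TPM in any of the 8 libraries.

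Axon guidance genes were higher in 26 of 39 members and lower in 8, with a median of 1.33. The netrin receptor DCC had 57.6 and 54.1 TPM in pgEpiSCs-MPCs against 0 to 0.099 TPM in pgEpiSCs, and UNC5C had 87.5 and 100.03 TPM in pgEpiSCs-MPCs against 0.846 to 1.74 TPM in pgEpiSCs. The repellent SLIT2 had 101 and 104 TPM in pgEpiSCs-MPCs against 1.12 to 2.40 TPM in pgEpiSCs. All 3 were near the floor in pgEpiSCs. SEMA3C, a semaphorin, had 87.6 and 72.7 TPM in pgEpiSCs-MPCs against 0.209 to 0.669 TPM in pgEpiSCs. EFNB2, an ephrin, had 220.4 and 240.4 TPM in pgEpiSCs-MPCs against 9.12 to 18.3 TPM in pgEpiSCs. ROBO1, a receptor for SLIT2, was lower, with 27.4 and 28.9 TPM in pgEpiSCs-MPCs against 34.3 to 59.8 TPM in pgEpiSCs.

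Cell cycle genes were called higher in part, and many of those calls were lost under another scaling. Of 20 tested members 14 were higher and 2 lower, and 8 and 2 kept their call in all 4 scalings. E2F1, which drives entry into DNA synthesis, had 163 and 170 TPM in pgEpiSCs-MPCs, against 48.9, 47.1 and 44.0 TPM in pgEpiSCs-Low and 47.6, 45.7 and 44.5 TPM in pgEpiSCs-high (log2 difference 1.83, SE 0.07, adjusted p = 2.3e-11). PCNA, the clamp of DNA polymerase, had 255 and 229 TPM in pgEpiSCs-MPCs against 97.5 to 110.2 TPM in pgEpiSCs. CCNB1, the mitotic cyclin, did not pass and was lower under 3 of 4 other scalings, with 424 and 394 TPM in pgEpiSCs-MPCs against 406 to 462 TPM in pgEpiSCs, and CCNE1, the cyclin of entry into S phase, was lower, with a log2 difference of -1.17. Cyclins of the first gap phase, their kinases and inhibitors were higher in 11 of 12 members and lower in none. CDK6, a kinase of that phase, had 46.0 and 51.2 TPM in pgEpiSCs-MPCs, against 1.26, 1.29 and 1.07 TPM in pgEpiSCs-Low and 1.58, 2.00 and 1.92 TPM in pgEpiSCs-high (log2 difference 4.31, SE 0.17, adjusted p = 2.3e-11). CCND2, its cyclin, had 78.2 and 82.8 TPM in pgEpiSCs-MPCs, against 5.15, 6.67 and 7.65 TPM in pgEpiSCs-Low and 22.3, 21.6 and 20.4 TPM in pgEpiSCs-high (log2 difference 2.66, SE 0.11, adjusted p = 7.7e-11). The inhibitor CDKN2C had 15.2 and 17.3 TPM in pgEpiSCs-MPCs, against 0.38, 0.942 and 0.599 TPM in pgEpiSCs-Low and 0.39, 0.401 and 0.538 TPM in pgEpiSCs-high (log2 difference 3.49, SE 0.17, adjusted p = 2.5e-10). Each of these 3 separated the groups fully. CDKN1A, an inhibitor under p53 control, had 115 and 118 TPM in pgEpiSCs-MPCs against 20.6 to 27.3 TPM in pgEpiSCs, and the imprinted inhibitor CDKN1C had 20.1 and 26.4 TPM in pgEpiSCs-MPCs against 0.664 to 8.36 TPM in pgEpiSCs.

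Glycolysis genes were lower in 17 of 22 members, and those 17 calls held in all 4 scalings, or for ENO1 in the 3 that tested it, whereas none of the 4 higher calls did. The median was -0.93. ENO1, enolase, had 937 and 1303 TPM in pgEpiSCs-MPCs, against 3255, 3577 and 3656 TPM in pgEpiSCs-Low and 4289, 4630.5 and 4424 TPM in pgEpiSCs-high (log2 difference -1.83, SE 0.09, adjusted p = 3.0e-10). LDHA, which makes lactate, had 145 and 236 TPM in pgEpiSCs-MPCs, against 674, 788 and 783 TPM in pgEpiSCs-Low and 1004, 1170.2 and 1121 TPM in pgEpiSCs-high (log2 difference -2.28, SE 0.13, adjusted p = 1.3e-09). In both genes every day 8 library lay under every pgEpiSCs library. PFKP, a phosphofructokinase, had 4.78 and 5.85 TPM in pgEpiSCs-MPCs, against 80.3, 81.5 and 75.5 TPM in pgEpiSCs-Low and 114, 97.6 and 77.4 TPM in pgEpiSCs-high (log2 difference -3.80, SE 0.11, adjusted p = 1.3e-12). SLC16A3, the lactate exporter, had 12.9 and 34.1 TPM in pgEpiSCs-MPCs, against 110.2, 125 and 101 TPM in pgEpiSCs-Low and 181, 154 and 83.7 TPM in pgEpiSCs-high (log2 difference -2.47, SE 0.30, adjusted p = 4.3e-06), and its day 8 libraries differed from each other more than those of the other named members. HK2, hexokinase, did not pass, with 101 and 168 TPM in pgEpiSCs-MPCs against 80.1 to 137 TPM in pgEpiSCs. GAPDH had at most 5.43 TPM and ALDOA at most 0.729 TPM in any of the 8 libraries, far under the other members named here, and how reads shared with near-identical copies were counted is not given in the sources used here.

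The 13 mitochondrial genes were all lower on the TPM scale, with a median of -0.56. Quantile normalization called 3 of the 13 lower and median-of-ratios scaling all 13, and a scaling without these genes cannot test them. COX1 had 19406 and 18436 TPM in pgEpiSCs-MPCs, against 23922, 21838 and 19096 TPM in pgEpiSCs-Low and 25861, 25678 and 25988 TPM in pgEpiSCs-high (log2 difference -0.32, SE 0.07, adjusted p = 0.0011). The calls of COX1, ND1 and CYTB (log2 differences of -0.67 for ND1 and -0.56 for CYTB) were lost under quantile normalization. Cholesterol synthesis genes were called higher in 9 of 19 and lower in 4, and 1 and 4 of those calls held in all 4 scalings.

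Among methylation genes, 6 of 10 were higher and 3 lower. The maintenance factor UHRF1 had 556 and 580.4 TPM in pgEpiSCs-MPCs against 197 to 325 TPM in pgEpiSCs (log2 difference 1.18, SE 0.07, adjusted p = 1.2e-09). DNMT1, which it recruits, had 267 and 287 TPM in pgEpiSCs-MPCs against 210.4 to 235 TPM in pgEpiSCs, and its call of higher was lost under 2 of 4 scalings. The demethylase TET1, high in pluripotent cells, had a log2 difference of -0.56, against 0.93 for TET2 and 0.65 for TET3. Imprinted genes were higher in 11 of 12 members, 10 of them in all 4 scalings, and lower in 1. MEST, expressed from the paternal copy, had 110.1 and 113 TPM in pgEpiSCs-MPCs, against 2.41, 2.66 and 3.48 TPM in pgEpiSCs-Low and 9.03, 6.34 and 6.80 TPM in pgEpiSCs-high (log2 difference 4.32, SE 0.11, adjusted p = 4.6e-13). PEG10, derived from a retrotransposon, had 546 and 566 TPM in pgEpiSCs-MPCs, against 51.4, 52.6 and 55.8 TPM in pgEpiSCs-Low and 96.0, 97.4 and 91.7 TPM in pgEpiSCs-high (log2 difference 2.95, SE 0.06, adjusted p = 3.8e-14). DLK1, a Notch-related surface protein, had 8.64 and 8.88 TPM in pgEpiSCs-MPCs against 0 to 0.382 TPM in pgEpiSCs. SNRPN was the member that was lower, with 27.9 and 26.6 TPM in pgEpiSCs-MPCs against 69.4 to 100.1 TPM in pgEpiSCs.

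The genes of the p53 and stress list divided, with 8 of 17 higher and 7 lower, 4 and 7 of them in all 4 scalings. Among all tested genes 47.5% were higher and 21.4% lower. CDKN1A and DDIT3 were higher, with log2 differences of 2.22 and 1.26, and MDM2 had 0.46, a call lost under 1 of 4 scalings. Genes of the amino acid stress response were lower. ASNS, asparagine synthetase, had 51.3 and 50.2 TPM in pgEpiSCs-MPCs, against 179.8, 187 and 193 TPM in pgEpiSCs-Low and 309, 307 and 285 TPM in pgEpiSCs-high (log2 difference -2.20, SE 0.06, adjusted p = 1.1e-12). CHAC1, which degrades glutathione, had 12.1 and 8.27 TPM in pgEpiSCs-MPCs against 39.0 to 90.0 TPM in pgEpiSCs. TRIB3, a pseudokinase, had 0.37 and 0.604 TPM in pgEpiSCs-MPCs against 2.51 to 4.98 TPM in pgEpiSCs.

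The calls were set against each passage alone. Of the 10301 called genes 8527 (82.8%) were called in the same direction against pgEpiSCs-Low alone and against pgEpiSCs-high alone, and these comparisons share the day 8 libraries. The passages themselves differed in 24% of tested genes, in the comparison of pgEpiSCs-high with pgEpiSCs-Low. In 48 genes the day 8 level was called higher than in one passage and lower than in the other. COL4A1, a basement membrane collagen, was such a gene, with 109 and 117 TPM in pgEpiSCs-MPCs, against 139, 134 and 138 TPM in pgEpiSCs-Low and 95.2, 82.6 and 67.7 TPM in pgEpiSCs-high. GRHL3 and IGFBP5 were others, and IGFBP5, an IGF-binding protein of myogenic cells, had 9.50 and 9.48 TPM in pgEpiSCs-MPCs, against 5.81, 7.47 and 7.36 TPM in pgEpiSCs-Low and 10.7, 14.7 and 11.5 TPM in pgEpiSCs-high.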

How the data were processed

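RNA-seq was deposited for 14 libraries in 5 groups, of which the 2 pgEpiSCs-MPCs, 3 pgEpiSCs-Low and 3 pgEpiSCs-high libraries were compared. The authors mapped reads to Sscrofa11.1 with HISAT2, counted them with featureCounts, per the labels, and deposited TPM values for 15031 genes. Depth cannot be read from TPM, and neither the number of reads nor strand use in counting is given in the sources used here. Since TPM are not counts, the count test of the study's methods was replaced by limma 3.58.1 in R 4.3.3 on log2(TPM + 1), with a mean for each of the 5 groups over all 14 libraries and an intensity trend, because pgEpiSCs-MPCs has 2 libraries and shares the spread of the others. A gene entered where 50% or more of the libraries of some group exceeded 0.5 TPM. The groups outside the comparison, which enter that filter and the spread, were pgEpiSCs-MCs of day 44 and MPC-Dif of day 4, with 3 libraries each. The study describes the former as muscle cells derived from pgEpiSCs, and its supplement describes the latter as pig muscle stem cells differentiated in horse serum. Whether replicate libraries stem from separate cultures is not stated, so p-values measure only the spread between libraries, which may be technical.

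The 40 gene lists and the genes in them were chosen with earlier results of these data known. Of 764 listed genes 672 were tested and 91 were not analysed here. The genes named are the 12 largest rises and falls, the defining members of each list, up to 6 further called members of a list by size of difference, the most abundant genes, the receptors of the supplied factors, and members that did not pass, as contrasts. ALDOA, ATOH1, CHRD, COL4A1, DES, DKK4, FRZB, FZD5, FZD8, GAPDH, GRHL3, HESX1, IGFBP5, LIN28B, PFKM, RAX, SFRP1, SNRPN, TCF7 and WIF1 were chosen after their values were seen, where no other part of that rule names them. Of 2209 identifiers without a symbol 608 were given one from RefSeq. The fit was tested on simulated data. Alternatives were pseudocounts of 0.1 and 0.5, filters at 0 and 2 TPM, 4 scalings, each passage alone, the 3 groups alone, no trend, a replicate block, a minimum log2 difference and leaving out each library. Coordinates, windows and sequences are from RefSeq for Sscrofa11.1.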

Additional observations from a re-analysis of the deposited data

Results flagged for a closer look

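In 3 of the named genes the day 8 level was called on opposite sides of the passages, and the passages themselves differed (limma, Benjamini-Hochberg adjusted p). COL4A1 had a log2 difference of -0.28 against pgEpiSCs-Low and 0.47 against pgEpiSCs-high, and pgEpiSCs-high minus pgEpiSCs-Low was -0.75 (SE 0.087, adjusted p = 4.0e-05). GRHL3 had -0.53 against pgEpiSCs-Low and 0.71 against pgEpiSCs-high, and pgEpiSCs-high minus pgEpiSCs-Low was -1.24 (SE 0.13, adjusted p = 1.7e-05). IGFBP5 had 0.42 against pgEpiSCs-Low and -0.33 against pgEpiSCs-high, and pgEpiSCs-high minus pgEpiSCs-Low was 0.75 (SE 0.10, adjusted p = 1.7e-04). No group had 4 or more libraries, so no library was tested as standing apart.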

How the results depend on the processing

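Scaling mattered most for counts. Quantile normalization gave 4598 higher and 5314 lower genes, against 7104 and 3197 as reported, and median-of-ratios scaling gave 5015 and 4891. The called genes whose libraries did not overlap numbered 4160 higher and 4793 lower under quantile normalization, and 4316 lower under median-of-ratios scaling. Against pgEpiSCs-Low alone quantile normalization gave 4297 and 4999, and against pgEpiSCs-high alone 4481 and 5186, with 4780 lower there under median-of-ratios scaling. Of called genes 31.0% were lower as reported, against 49.4% under median-of-ratios scaling, 53.6% under quantile normalization, 37.2% without mitochondrial genes and 42.3% without the 100 most abundant genes. A minimum log2 difference of 2 left 815 higher and 302 lower genes, and 162 and 60 list members. Leaving out 1 library gave 6140 to 7103 higher and 2688 to 3253 lower genes, with 323 to 350 and 178 to 201 list members. The replicate block gave 6934 higher and 3139 lower genes, and 342 and 196 list members. Same-numbered libraries deviated together by correlations of only -0.072 to 0.083, so the numbers were not taken to pair them.

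Of 237 called genes named 216 kept direction and call under all alternatives that tested them, other than the minimum difference. Among genes called with either setting, signs turned under quantile normalization for ACVR1B (-0.025), FOXA1 (-0.11), IGFBP5 (-0.43), IL6ST (-0.048), MDM2 (-0.0027) and PFKM (-0.037). Under median-of-ratios scaling they turned for COL4A1 (-0.22), FGFR1 (-0.11), IGFBP5 (-0.24), IL6ST (-0.047) and PFKM (-0.065), and without the 100 most abundant genes for FGFR1 (-0.0074). Against pgEpiSCs-Low alone COL4A1 (-0.28), DES (-0.16) and GRHL3 (-0.53) turned, and against pgEpiSCs-high alone FOXA1 (-0.05026), IGFBP5 (-0.33) and OTX2 (0.014). Leaving out the first pgEpiSCs-MPCs library gave HK2 an adjusted p of 6.1e-04, and leaving out the third pgEpiSCs-Low library gave TCF15 0.0057. The cause of these shifts was not tested. Depth is unknown, and levels under 1 TPM are given without counting error.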
